A study of Mus musculus with 419 samples.

Results

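Lung surfactant and epithelial genes were followed through bulk RNA sequencing of 19 mouse tissues. The set held 10 of the 55487 genes in the count table, found by their symbols: the surfactant protein genes Sftpa1, Sftpb, Sftpc and Sftpd, the lamellar body genes Abca3 and Lamp3, the secretoglobin genes Scgb1a1 and Scgb3a2, and the genes Ager and Aqp5. All 10 were found, and all 10 passed the filter on low counts in lung. The measured level is CPM, the reads of a gene scaled to a common library size of 1e+06 reads.

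Alveoli are lined by flat type 1 cells, across which gas diffuses, and by cuboidal type 2 cells, which make surfactant. Surfactant is a film of lipid and protein that lowers surface tension; type 2 cells store it in lamellar bodies before release and take part of it back. The conducting airways carry club cells, which secrete small proteins of the secretoglobin family into the airway lining fluid.

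The mice were of the CBA/CaJ strain and served to model REDs, the syndrome of low energy availability described in athletes. Groups were Deficient (energy-deficient) and Control (energy-sufficient) mice of each sex, taken at zeitgeber time 17 h (ZT17) or 5 h (ZT05). Their age and the means by which energy deficiency was produced are not given in the sources used here. Lung had 24 libraries from 24 mice by their animal numbers, 3 in each group of sex, treatment and time and thus 6 Deficient against 6 Control lungs in each sex, so the p-values below measure the spread between mice.

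The male lung libraries stood apart from the female ones before any comparison. Mitochondrially encoded genes took 32.3 to 53.7% of the counts in Deficient males and 40.1 to 64.9% in Control males, against 2.32 to 3.79% in Deficient females and 2.15 to 3.003% in Control females. Within a sex the share did not separate the treatments (exact permutation test, two-sided, p = 0.197 in females and p = 0.221 in males). Library totals ran from 9467584 to 11835045 counts in Deficient males, 9851367 to 17394181 in Control males, 19936765 to 26753412 in Deficient females and 18665110 to 27651943 in Control females. Both sexes share 1 estimate of the spread in a fit of all 24 lungs, so results of each sex fitted alone stand beside those of the common fit, and values without the 3 male libraries over 50% mitochondrial counts (Control ZT05 replicates 2 and 3, Deficient ZT17 replicate 2) are given where they differ. RNA of squamous epithelium was also present in part of the lungs: the keratin gene Krt13 ranged from 0.536 to 1916 CPM in Deficient females and from 0.16 to 1930 CPM in Control females, and reached 15.96 CPM in Deficient males and 34.2 CPM in Control males.

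The label lung was borne out by these genes. They took 5.88 to 7.59% of all counts in Deficient females and 5.99 to 7.62% in Control females, and 3.66 to 5.69% in Deficient males and 1.68 to 5.91% in Control males. In females Scgb1a1 was first and Sftpc second of 18528 tested genes by mean CPM, and in males, where mitochondrial transcripts led, they were number 7 and number 8. Per kilobase of exon, Scgb1a1 averaged 61302 ± 8493 CPM per kb in females (SD, n = 12). Sftpc followed at 12742 ± 2684 CPM per kb. Then came Scgb3a2 at 1195 ± 209.6, Sftpb at 1176 ± 101 and Ager at 1088 ± 214 CPM per kb, whose spreads overlap one another. Sftpa1 lay lower at 673 ± 135 CPM per kb and Sftpd at 208 ± 23.0 CPM per kb. Lamp3 at 111 ± 25.2 and Aqp5 at 99.8 ± 22.5 CPM per kb did not differ beyond their spread, and Abca3 was lowest at 57.3 ± 10.7 CPM per kb. The order of the means differed in males, where Ager at 258 ± 141 CPM per kb stood below Sftpa1 and Sftpd. Sftpa1 was at 465 ± 129 and Sftpd at 333 ± 80.1 CPM per kb, and the spreads of Ager, Sftpa1 and Sftpd overlap one another. Lowest in males were Abca3 at 68.5 ± 15.6, Lamp3 at 54.7 ± 19.5 and Aqp5 at 51.1 ± 13.4 CPM per kb, whose spreads overlap.

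Several genes stood at other levels in males than in females, and with the mitochondrial share so different between the sexes this cannot be told apart from a difference between the libraries. The male mean of Ager was 0.237 times the female mean, that of Lamp3 0.492 times, that of Aqp5 0.512 times and that of Sftpa1 0.692 times. The male mean of Sftpd was 1.60 times and that of Sftpc 1.36 times the female one. With mitochondrial genes left out of the library size the ratio of Ager was 0.250. In bulk tissue fewer cells of a type and less RNA per cell cannot be told apart, here and in all comparisons below.

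**Figure D1:**
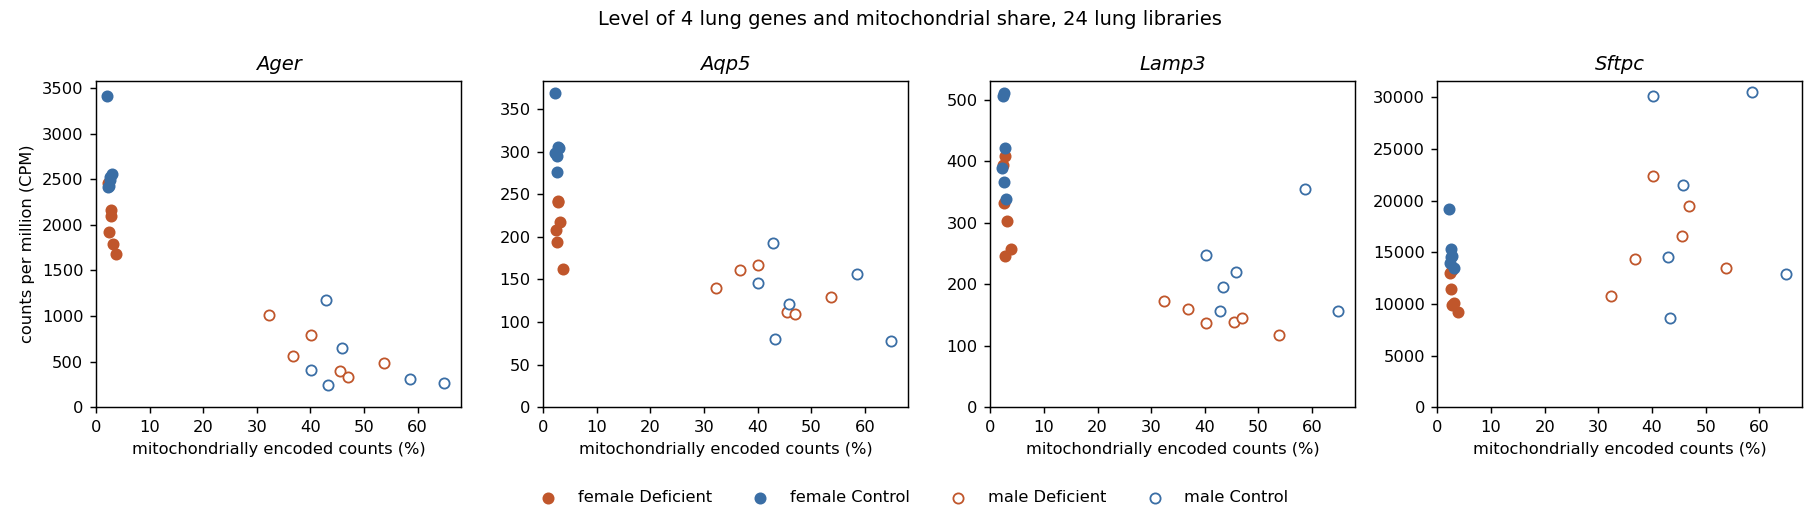
CPM of Ager, Aqp5, Lamp3 and Sftpc (vertical axes, from 0) against the percent of counts from mitochondrially encoded genes (horizontal axis) in the 24 lung libraries; filled points are females, open points males, orange Deficient and blue Control. The 12 female libraries lie at 2.15 to 3.79% and the 12 male libraries at 32.3 to 64.9%, with Ager at no more than 1176 CPM in every male library and at no less than 1676 CPM in every female one.

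The genes lie on 7 chromosomes (GENCODE M21 annotation of GRCm38). Sftpa1 (chr14:41131782-41136452, plus strand) and Sftpd (chr14:41172214-41185149, minus strand) are neighbours in the collectin cluster, with Mbl1 between them, while Sftpc (chr14:70520949-70524081, minus strand) lies farther along the same chromosome. Bmp1 lies 715 bases from Sftpc on the same strand. Ager (chr17:34597862-34600936, plus strand) is closely flanked, with Rnf5 155 bases away on the opposite strand and Pbx2 462 bases away on the same strand. Abca3 (chr17:24351950-24410201, plus strand) is overlapped on the opposite strand by the transcript D330041H03Rik. Lamp3 lies at chr16:19653378-19706375 on the minus strand, Sftpb at chr6:72304610-72314371 on the plus strand, Aqp5 at chr15:99590782-99594829 on the plus strand and Scgb1a1 at chr19:9083636-9087958 on the minus strand. The library kit keeps strand, but whether the counting used it is not given in the sources used here, so reads of Abca3 and of its overlapping transcript may not be separated.

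Upstream sequence is shown for Lamp3, called over both sexes, and for Ager, called between times. It is also shown for Sftpb, a surfactant protein gene with a motif of the lung transcription factor NKX2-1. Sftpb was not called in the common fit of the lungs. Aqp5 is not shown, as fewer than 150 of the 250 bases searched lay before its start in both annotations. Each run holds 150 bases of RefSeq sequence on GRCm38.p6, read 5' to 3' on the gene's strand, and ends 1 base before the RefSeq start of Sftpb and Ager and 11 bases before that of Lamp3. Capitals mark a motif found by search of both strands.

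Sftpb, chr6:72304460-72304609, plus strand: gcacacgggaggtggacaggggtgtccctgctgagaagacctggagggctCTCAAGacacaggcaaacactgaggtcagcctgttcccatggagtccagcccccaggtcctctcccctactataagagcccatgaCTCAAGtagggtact

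Lamp3, chr16:19706376-19706525, minus strand: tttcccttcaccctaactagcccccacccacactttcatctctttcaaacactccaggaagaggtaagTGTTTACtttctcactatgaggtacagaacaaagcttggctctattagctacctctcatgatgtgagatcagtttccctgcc

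Ager, chr17:34597700-34597849, plus strand: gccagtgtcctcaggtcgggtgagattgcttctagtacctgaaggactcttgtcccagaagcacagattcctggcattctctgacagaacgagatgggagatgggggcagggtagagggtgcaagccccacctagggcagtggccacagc

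The search covered the 250 bases before the RefSeq start of the 6 genes for which the reference held a promoter (Sftpa1, Sftpb, Abca3, Lamp3, Ager and Aqp5). The letters CTCAAG, the core of an NKX2-1 site, stood in Sftpb at 100 to 95 and at 15 to 10 bases before the start and in Sftpa1 at 166 to 161 bases before it; 13.3% of 32817 mouse promoters of the same length hold them. TGTTTAC, a forkhead core, stood in Lamp3 at 92 to 86 bases before the start, and 3.16% of promoters hold it. GGGCGG, an Sp1 core, stood in Abca3 at 9 to 4 bases before the RefSeq start, and 32.7% of promoters hold it. In Aqp5 it stood at 77 to 72 and at 34 to 29 bases before that start. By the GENCODE starts these Abca3 and Aqp5 matches lie within the genes. TTGCNNAA, the core of a C/EBP site, is held by 9.57% of promoters and the full palindromic glucocorticoid response element by 0.00914%; neither stood in any of the 6 windows. No match overlapped another.

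Whether energy deficiency changed the lung genes was tested first in females. With all 24 lungs in 1 fit, 0 of the 10 genes passed the test in females (edgeR quasi-likelihood test, Benjamini-Hochberg adjusted p under 0.05), against 0.108% of all 18528 genes tested. That fit called 20 genes in all, while 2025 genes had an unadjusted p under 0.05 and DESeq2 called 239. With the 12 females fitted alone, 1 of the 10 genes passed, Aqp5, which was lower in Deficient lungs, against 7.42% of 17788 genes tested. The median log2 fold change over the 10 genes was -0.14 in the common fit and -0.11 in the females alone, beside -0.01 and 0.02 over all genes tested.

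Aqp5, the water channel of the apical face of type 1 cells, ranged from 162 to 243 CPM with a median of 213 in Deficient females, and from 276 to 368 CPM with a median of 301 in Control females. The highest Deficient lung lay below the lowest Control lung; 2.45% of all genes separate the female groups in this way. The log2 fold change was -0.55 ± 0.16 (SE) with adjusted p = 0.177 in the common fit of edgeR. In the females alone it was -0.53 ± 0.08 with adjusted p = 0.00682, a level 0.694 times that of Control. Without the 3 male libraries it was -0.56 with adjusted p = 0.0498.

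Ager encodes a receptor for advanced glycation end products and is carried in lung mainly by type 1 cells. It ranged from 1676 to 2464 CPM with a median of 2005 in Deficient females, and from 2417 to 3418 CPM with a median of 2509 in Control females. The groups overlapped, with 1 Deficient lung above the 2 lowest Control lungs. The log2 fold change was -0.36 ± 0.11 in the females alone with an edgeR adjusted p = 0.0709, and it did not pass.

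Sftpc, the most hydrophobic of the surfactant proteins and made by type 2 cells alone among lung cells, ranged from 9198 to 13245 CPM with a median of 10777 in Deficient females, and from 13484.5 to 19225 CPM with a median of 14604 in Control females. These ranges also did not overlap. The log2 fold change was -0.44 ± 0.25 in the common fit and -0.42 ± 0.12 in the females alone, where the edgeR adjusted p = 0.0539 missed the threshold. In that fit the 95% interval ran from -0.65 to -0.19.

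Sftpb, which spreads surfactant lipid at the air surface, averaged 2239 ± 185 CPM in Deficient females and 2391 ± 199 CPM in Control females (SD, n = 6 each). Its log2 fold change in the females alone was -0.07 with an interval of -0.24 to 0.10. The collectins Sftpa1 and Sftpd, which bind microbes in the alveolar lining, averaged 2003 ± 379 and 514 ± 57.1 CPM in Deficient females, against 1844 ± 408 and 493.05 ± 57.5 CPM in Control females. Their intervals in the females alone were -0.06 to 0.37 for Sftpa1 and -0.07 to 0.25 for Sftpd.

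Among the lamellar body genes, Lamp3, a membrane glycoprotein of lamellar bodies, ranged from 246 to 409 CPM in Deficient females with a median of 318, and from 338 to 511 CPM in Control females with a median of 405. The groups overlapped, and the log2 fold change of -0.34 ± 0.13 in the females alone had an edgeR adjusted p = 0.111. At ZT05 Lamp3 ranged from 246 to 409 CPM in Deficient females and from 422 to 511 CPM in Control females. At ZT17 it ranged from 258 to 395 and from 338 to 389 CPM. Abca3, the transporter that loads phospholipid into lamellar bodies, averaged 501 ± 87.7 CPM in Deficient females and 572 ± 107.5 CPM in Control females, and its interval in the females alone was -0.36 to 0.04. At ZT05 it ranged from 418 to 502 CPM in Deficient females and from 556 to 749 CPM in Control females. At ZT17 it ranged from 449 to 667 and from 485 to 495 CPM. The time difference of the response, tested below, passed for neither gene.

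Neither club cell gene passed in females. Scgb1a1, the main secreted protein of club cells, averaged 30314 ± 3945 CPM in Deficient females and 28046 ± 4160 CPM in Control females, with an interval of -0.10 to 0.38 in the females alone. Scgb3a2, a second airway secretoglobin, averaged 1075 ± 176 CPM in Deficient females and 1028 ± 207 CPM in Control females, with an interval of -0.19 to 0.37.

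**Figure D2:**
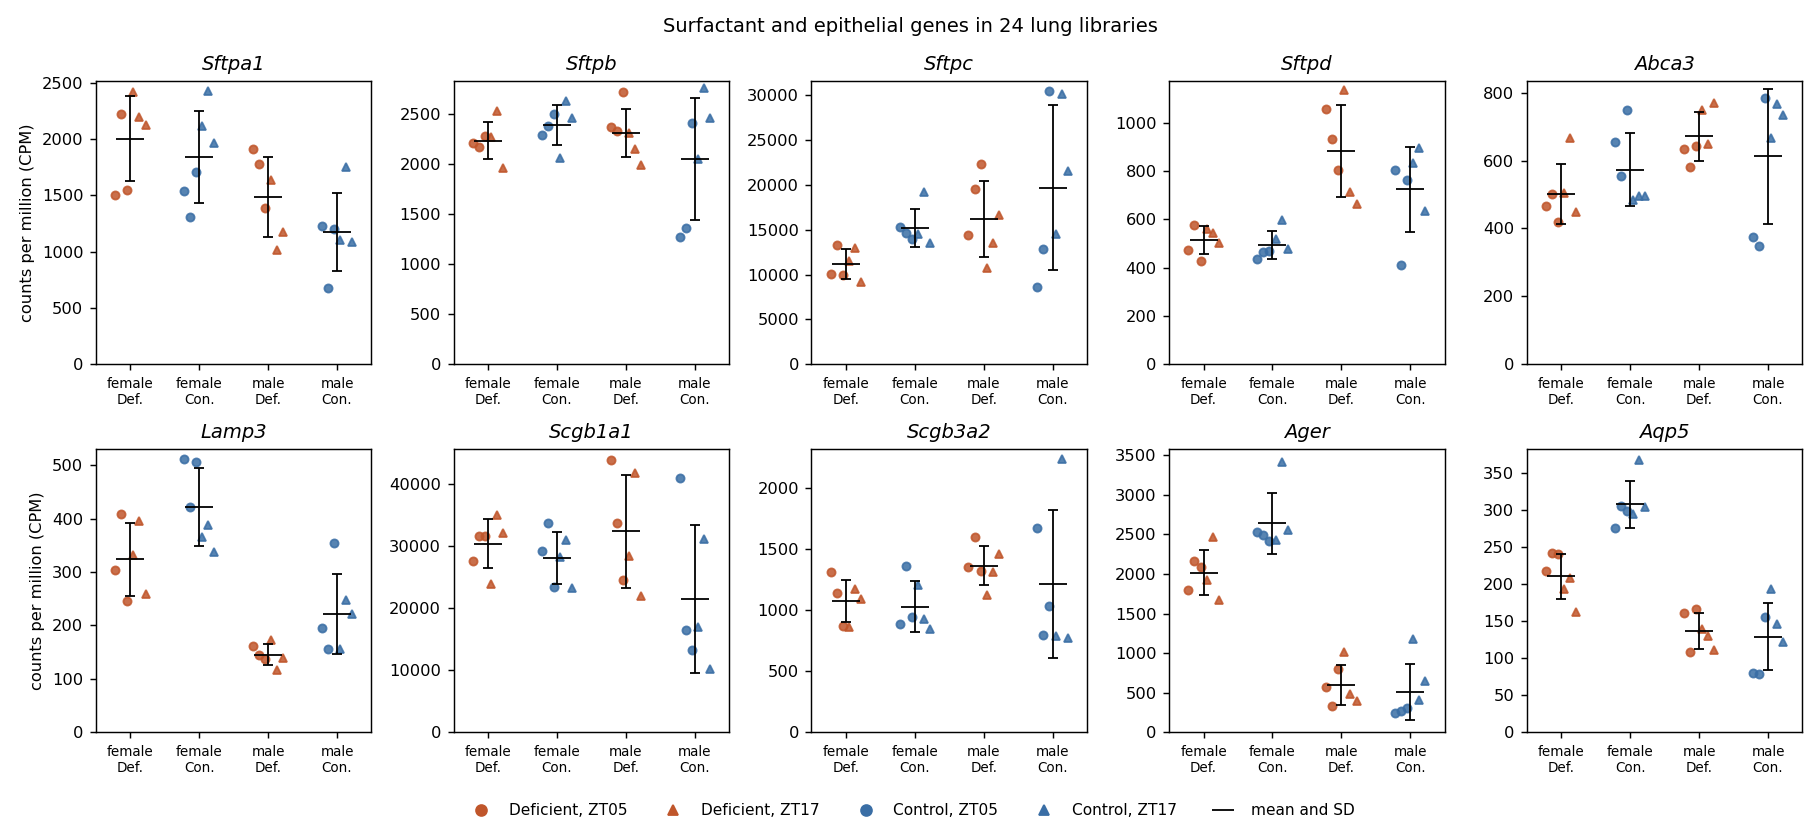
CPM of the 10 genes in the 24 lung libraries, 1 panel per gene with axes from 0; orange points are Deficient and blue points Control, circles ZT05 and triangles ZT17, and black bars the mean and SD of 6 libraries. In females the Deficient and Control points of Aqp5 and Sftpc do not overlap, and in males those of all 10 genes do.

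In males 0 of the 10 genes passed the test in the common fit, against 5.24% of 18528 genes, and 0 passed in the males alone, against 0.334% of 16157 genes. The groups overlapped for each of the 10 genes, beside 0.567% of all genes whose male groups do not overlap. The median log2 fold change over the 10 was 0.18 in the common fit, and 0.01 over all genes.

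Lamp3 came closest in males. It ranged from 117 to 173 CPM with a median of 142 in Deficient males and from 156 to 355 CPM with a median of 208 in Control males, so that 2 Deficient lungs lay above the 2 lowest Control lungs. The log2 fold change was -0.61 ± 0.18 with an edgeR adjusted p = 0.0518 in the common fit and -0.63 ± 0.20 with adjusted p = 0.190 in the males alone. It passed without the low-count filter (adjusted p = 0.025), with the stricter filter (0.0421), with DESeq2 (0.0171) and in 5 of 24 fits that left out 1 library. Without the 3 libraries of highest mitochondrial share it was -0.41 with an edgeR adjusted p = 0.225.

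The other male values were wide. Scgb1a1 ranged from 21955 to 43899 CPM in Deficient males and from 10100 to 40904 CPM in Control males, and its log2 fold change of 0.60 ± 0.29 had an edgeR adjusted p = 0.252. Without Control ZT05 replicate 1, the Control lung with the highest level, it was 0.93 with adjusted p = 0.0281, and without the 3 libraries of highest mitochondrial share it was 0.05. Sftpc ranged from 10772 to 22366 CPM in Deficient males and from 8662 to 30484 CPM in Control males. Its log2 fold change was -0.29 ± 0.25 over all males and 0.21 without the 3 libraries. Abca3, at -0.16 to 0.46 by its interval in the common fit, passed when Control ZT05 replicate 3 was left out (0.39, edgeR adjusted p = 0.0437).

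Averaged over both sexes, 1 of the 10 genes passed, against 5.13% of 18528 genes. This was Lamp3, whose level fell by 0.49 ± 0.13 on the log2 scale in Deficient lungs (edgeR adjusted p = 0.0284), a level 0.713 times that of Control. It kept the call in all 7 other settings, among them that without the 3 libraries (-0.39, adjusted p = 0.0457), and in 19 of 24 fits with 1 library left out. The call was lost, with adjusted p from 0.0504 to 0.0598, without Control female ZT05 replicate 1 or ZT17 replicate 2, Deficient female ZT05 replicate 3 or ZT17 replicate 3, or Control male ZT17 replicate 3. The other 9 genes did not pass; their log2 fold changes lay between -0.37 (Sftpc) and 0.36 (Scgb1a1).

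Lamp3 is also a marker of mature dendritic cells in humans, so the other genes of that state were examined. Over both sexes 1 of 8 passed, Fscn1, an actin bundler, at -1.16 ± 0.21 (edgeR adjusted p = 0.00331). In males 3 of 8 fell, Ccr7, Fscn1 and Cd83 in the common fit. The summed level of the 8 ranged from 218 to 366 CPM in Deficient males and from 201 to 315 CPM in Control males, and overlapped. Genes of lymphocytes fell in males in the common fit, 6 of 6 B cell genes and 7 of 7 T and NK cell genes. The summed B cell genes ranged from 13.6 to 53.3 CPM (median 34.9) in Deficient males and 22.3 to 418 CPM (median 125) in Control males. The summed T and NK cell genes ranged from 8.80 to 25.7 CPM (median 23.6) in Deficient males. In Control males they ranged from 17.6 to 304 CPM with a median of 41.6, far below the highest lung. For both sums the male groups overlapped. The part of these cells in the difference of Lamp3 was not tested.

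The female response minus the male response was tested directly. For this difference 0 of the 10 genes passed, against 0.788% of 18528 genes. Aqp5 had the smallest p, with a difference of -0.65 ± 0.22 on the log2 scale (edgeR adjusted p = 0.221). Without the 3 libraries of highest mitochondrial share the difference was -0.84 with adjusted p = 0.0352, and without the single library Control male ZT05 replicate 3 it was -0.86 with adjusted p = 0.0118.

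**Figure D3:**
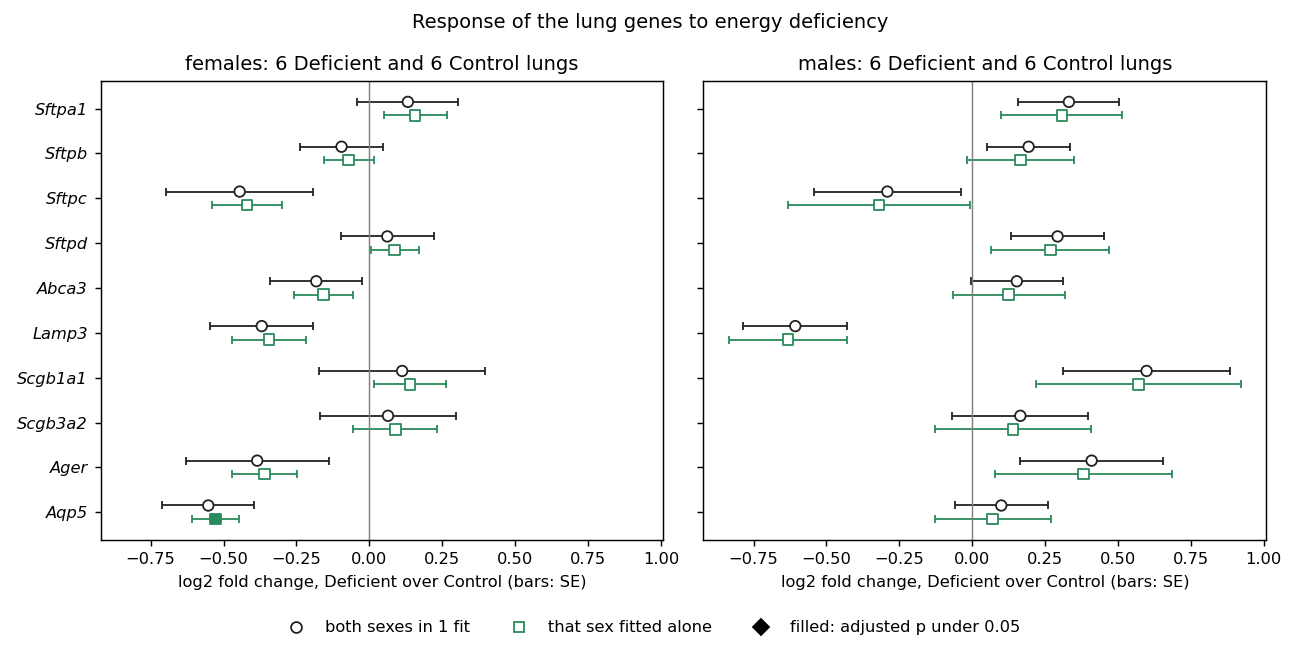
Log2 fold change of Deficient over Control lungs (horizontal axis, bars of 1 SE) for the 10 genes in females (left) and males (right); circles come from 1 fit of both sexes, squares from the fit of that sex alone, and a filled symbol has an adjusted p under 0.05. Aqp5 in the females alone, at -0.53, is the filled symbol, and the bars of the common fit are wider than those of the females alone.

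Differences between the collection times were looked at next. In Control lungs 1 of the 10 genes passed between ZT17 and ZT05 averaged over the sexes, against 14.2% of 18528 genes. Ager was higher at ZT17, by 0.82 ± 0.25 on the log2 scale (edgeR adjusted p = 0.0321). In Control males it stood at 1176, 409 and 645 CPM at ZT17, against 238, 265 and 310 CPM at ZT05. In Control females it stood at 2425, 3418 and 2562 CPM at ZT17, against 2530, 2488 and 2417 CPM at ZT05. The male groups did not overlap and the female groups did. For Abca3 the average over the sexes joined unlike directions. It averaged 653 CPM at ZT05 and 492 CPM at ZT17 in Control females, and 502 and 723 CPM in Control males. Sftpa1 ranged from 1307 to 1703 CPM at ZT05 and from 1967 to 2428 CPM at ZT17 in Control females. In Control males it ranged from 678 to 1230 and from 1082 to 1756 CPM. Neither passed in either sex alone.

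The call for Ager did not hold in either sex alone: the log2 difference was 0.17 with an edgeR adjusted p = 0.579 in the females alone, where 6.31% of genes were called, and 1.45 with adjusted p = 0.0617 in the males alone, where 5.84% were. It was 0.91 with adjusted p = 0.0776 without the 3 libraries. It was also lost, at adjusted p up to 0.134, without any of 7 single Control libraries: replicates 1, 2 and 3 of female ZT05, replicate 2 of female ZT17, replicates 1 and 2 of male ZT05 and replicate 1 of male ZT17. The mitochondrial share of Control males was lower at ZT17 than at ZT05 by 12.6 percentage points on average (exact permutation test, two-sided, p = 0.200, where 3 against 3 cannot go below 0.100), and its part in the difference was not tested. Without the 3 libraries Sftpc (0.72, edgeR adjusted p = 0.0423), Aqp5 (0.53, adjusted p = 0.0343) and Sftpb (0.46, adjusted p = 0.0206) passed. Without Control male ZT05 replicate 3 alone Aqp5 (0.55, adjusted p = 0.00893) and Sftpb (0.44, adjusted p = 0.0161) passed beside Ager.

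Other epithelial genes of Control lungs were counted in the same contrast, in which 1270 of 18528 genes rose and 1367 fell. Of 16 type 1 cell genes 5 rose and 0 fell in the common fit, and their median was 0.50, beside -0.01 over all genes. They were Vegfa, an angiogenic factor, at 1.49 ± 0.34, Col4a4 and Col4a3, chains of basement membrane collagen, at 1.38 ± 0.34 and 0.61 ± 0.16, Igfbp2 at 1.25 ± 0.32 and Lmo7 at 0.94 ± 0.23. In the females alone 1 of 16 rose, and in the males alone 4 did. Nkx2-1 (0.52 ± 0.17), Foxa2 (0.59 ± 0.19) and Srebf1 (0.79 ± 0.14), of 20 transcription factors of lung epithelium, rose and 0 fell, a share called near the 14.2% of all genes. In the females alone Nkx2-1 was at -0.03 ± 0.12. In the same contrast, averaged over the sexes, 7 of 7 T and NK cell genes and 5 of 6 B cell genes fell. Over both times the summed T and NK cell genes ranged from 17.6 to 304 CPM (median 41.6) in Control males. In Control females they ranged from 29.4 to 79.1 CPM (median 54.0). The part of cell makeup in these differences was not tested.

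In Deficient lungs 0 of the 10 genes passed between ZT17 and ZT05, against 0.21% of 18528 genes, where edgeR called 39 genes, 1866 genes had an unadjusted p under 0.05 and DESeq2 called 189. Ager in Deficient lungs differed by 0.08 ± 0.25 on the log2 scale. The response at ZT17 minus that at ZT05 passed for 0 of the 10 genes, against 6.14% of 18528 genes. Its value for Aqp5 was -0.60 ± 0.22 with an edgeR adjusted p = 0.107. Without the 3 libraries of highest mitochondrial share it was -0.79 with adjusted p = 0.030, and Sftpb passed as well at -0.55 with adjusted p = 0.0493; without Control male ZT05 replicate 3 alone Aqp5 was at -0.80 with adjusted p = 0.0143 and Sftpb passed at adjusted p = 0.0495. Ager was at -0.74 ± 0.35 with adjusted p = 0.198, and at -1.01 with adjusted p = 0.0486 without Deficient male ZT17 replicate 1. Core clock genes marked the 2 times: Dbp, an output gene of the clock, differed by -4.07 ± 0.31 and Arntl, its core activator, by 2.02 ± 0.32 on the log2 scale in Control lungs.

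Among themselves the genes varied together to different degrees. After the mean of each group of sex, treatment and time was removed, Sftpa1 and Sftpd had a Pearson r of 0.871 across the 24 lungs, with 0.796 in the 12 females and 0.895 in the 12 males. Abca3 and Lamp3 had an r of 0.857, with 0.813 in females and 0.877 in males. Scgb1a1 and Scgb3a2 had an r of 0.677, with 0.491 in females and 0.722 in males. Ager and Aqp5, both of type 1 cells, had an r of 0.644, with 0.909 in females and 0.612 in males. Aqp5 was as close to genes of type 2 cells over the 24 lungs. Its r was 0.663 with Sftpb (females 0.834, males 0.636) and 0.645 with Abca3 (females 0.426, males 0.703). Sftpc and Ager differed by sex, with an r of 0.859 in females and -0.281 in males. These are descriptions of libraries that share scaling and, in males, a high mitochondrial share. The female values include Control ZT17 replicate 2, which was high for Ager, Aqp5 and Sftpc alike, and r without it was not computed.

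The genes most like Sftpc by this measure, of 10982 genes averaging 8 CPM or more, were Napsa, an aspartic protease of type 2 cells (r = 0.934, females 0.835, males 0.948), Sfta2 (0.920), Bex4 (0.920), Rnase4 (0.915) and Zdhhc3 (0.905). Those most like Scgb1a1 were Cetn2, a centrin (0.868, females 0.512, males 0.918), Fam216a, Cyb5a, 1110004E09Rik and Efcab1. For Efcab1 the r was 0.924 in males and -0.02 in females. Those most like Ager were Tns2 (0.948, females 0.787, males 0.964), Ndst1, Krt7, Kank3 and Dennd3.

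Other genes of the same cells were counted over both sexes, where 399 of 18528 genes rose and 551 fell, 5.13% in all. Of 30 further type 2 cell and surfactant lipid genes, 0 rose and 3 fell over both sexes, with a median of -0.12 beside -0.01 over all genes. Egfl6 fell by 0.67 ± 0.12 on the log2 scale (edgeR adjusted p = 0.00483), Acoxl, a peroxisomal acyl-CoA oxidase-like gene, by 0.72 ± 0.21 (adjusted p = 0.0452) and Elovl1, a fatty acid elongase, by 0.47 ± 0.12 (adjusted p = 0.0305). The same 3 fell in the females alone. Slc34a2, the phosphate carrier of type 2 cells, and Lpcat1, which makes the main surfactant lipid, did not pass (-0.11 ± 0.14 and -0.07 ± 0.13), nor did Napsa at -0.32 ± 0.13.

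Of 16 further type 1 cell genes, 0 passed over both sexes, with a median of 0.04. In the females alone 0 rose and 2 fell: Cldn18, a tight junction claudin, ranged from 398 to 588 CPM in Deficient females and from 702 to 878 CPM in Control females and fell by 0.64 ± 0.11 on the log2 scale (edgeR adjusted p = 0.00909), and Spock2 fell by 0.36 ± 0.10 (adjusted p = 0.0447). The Cldn18 groups did not overlap. Pdpn and Hopx, other type 1 cell genes, were at -0.30 ± 0.10 and -0.02 ± 0.10 in the females alone and did not pass.

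Of 20 further club and secretory airway genes, 2 rose and 2 fell over both sexes, with a median of 0.23. Gsta3, a glutathione transferase, rose by 0.38 ± 0.09 on the log2 scale. Tff2 and Gp2, with medians under 2 CPM in each group, fell by 1.75 ± 0.45 and 1.41 ± 0.36. Cyp2f2, the club cell cytochrome, and Scgb3a1, a secretoglobin of larger airways, were at 0.30 ± 0.14 and 0.53 ± 0.30 and did not pass, and 0 of 15 ciliated cell genes passed, Foxj1 at 0.29 ± 0.19 among them. Of 20 transcription factors of lung epithelium 1 rose, Cebpd, at 0.59 ± 0.15 (edgeR adjusted p = 0.0277), and 0 fell; Nkx2-1 was at -0.03 ± 0.12.

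Alveolar macrophages clear used surfactant, and of 13 genes of these cells and of clearance 0 rose and 4 fell over both sexes, with a median of -0.48. They were Itgax at -0.93 ± 0.21, Csf2rb, a receptor chain for GM-CSF, at -0.78 ± 0.16, Ear2 at -0.75 ± 0.20 and Abcg1, a cholesterol exporter, at -0.61 ± 0.16. Abcg1 ranged from 85.0 to 116 CPM in Deficient females and from 118 to 144 CPM in Control females. The summed level of the 13 ranged from 801 to 1290 CPM in Deficient females and 952 to 1311 CPM in Control females, and from 128 to 284 CPM in Deficient males and 130 to 291 CPM in Control males.

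Glucocorticoids raise surfactant output in the fetal lung, and genes that respond to them were counted beside the set. Of 15 such genes 10 rose and 0 fell over both sexes, with a median of 0.77. Fkbp5, a chaperone of the receptor, ranged from 27.4 to 93.6 CPM in Deficient females and 10.4 to 28.6 CPM in Control females, and it rose over both sexes (edgeR adjusted p = 0.00146). On the log2 scale its male difference was 1.57 ± 0.35 with an adjusted p of 0.0111, and its female one was 1.43 ± 0.33, which did not pass (0.0875). Over both sexes Zbtb16 rose by 1.90 ± 0.26, Map3k6 by 1.23 ± 0.20, Mt2, a metallothionein, by 1.11 ± 0.22 and Per1 by 0.94 ± 0.18.

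Lists of other cells gave the following over both sexes. All 4 erythroid genes fell, from -1.56 ± 0.34 (Hbb-bt) to -1.03 ± 0.29 (Hba-a1), and of 12 fibroblast and matrix genes Ces1d rose and the collagen genes Col3a1, Col1a1 and Col1a2 fell. Of 12 lung endothelial genes, 7 smooth muscle genes, 7 mesothelial genes, 6 adipocyte genes, 7 cardiac muscle genes, 4 cartilage genes and 2 thyroid genes 0 passed. Of 6 B cell genes Cd79b fell, of 7 T and NK cell genes Ncr1 and Nkg7 fell, and of 16 clock genes 1 rose, Per1. Of 6 squamous genes 0 passed, and their sum ranged from 24.7 to 4528 CPM in Deficient females and 18.3 to 4217 CPM in Control females. Of 7 basal cell genes Krt17 rose, of 5 neuroendocrine genes Calca rose, and of 7 neutrophil genes Retnlg rose. The part of these cells in the differences of the 10 genes was not tested.

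Outside lung the genes were read as traces in 395 libraries of 18 tissues. At least 1 count was seen in all 395 libraries for Abca3, in 378 for Ager and in 219 for Aqp5. Sftpb had counts in 123, Sftpc in 106, Sftpa1 in 102, Scgb1a1 in 99, Sftpd in 83, Lamp3 in 78 and Scgb3a2 in 33 libraries. A median of at least 1 CPM was reached in 30 of the pairs of gene and tissue: by Abca3 in all 18 tissues, by Ager in 4, by Sftpc, Sftpd and Aqp5 in 2 each, by Sftpa1 and Lamp3 in 1 each, and by Scgb1a1, Scgb3a2 and Sftpb in 0. Scgb1a1, with 13358266 reads in the lung libraries together, had 161 in all other tissues, and its highest median outside lung was 0.064 CPM in testis.

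**Figure D4:**
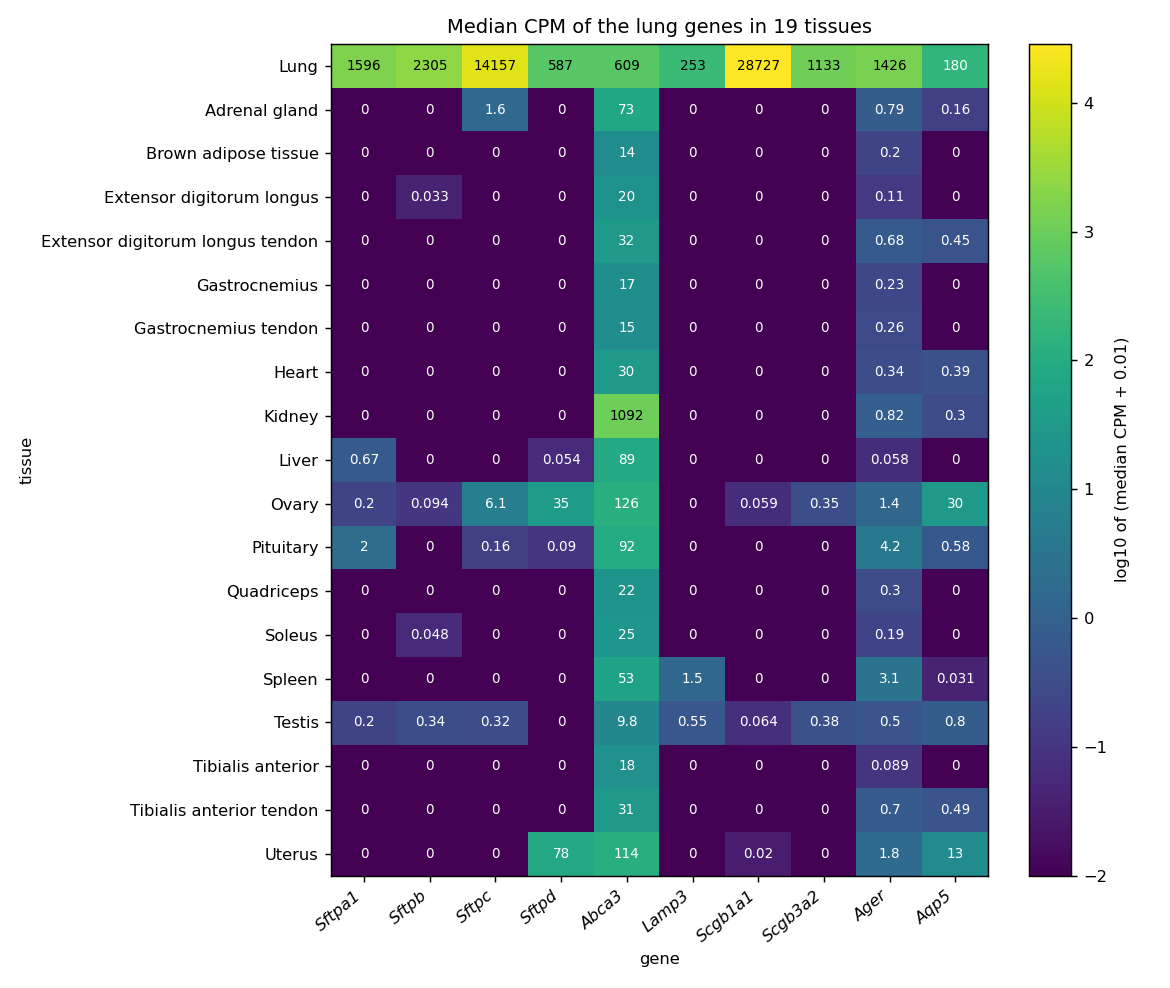
Median CPM over libraries for the 10 genes (columns) in lung (top) and 18 other tissues (rows below), with the median printed in each cell and colour on a log10 scale after adding 0.01 CPM. Abca3 is at 9.81 CPM or more in every tissue and at 1092 CPM in kidney, while Scgb1a1, Scgb3a2 and Sftpb are below 1 CPM in every tissue but lung.

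Abca3 was the broadest of the set. In kidney its median was 1092 CPM over 24 libraries, with a range of 609 to 2013, and its mean was 206% of the lung mean. Its median was 126 CPM in ovary, where its mean was 20.3% of the lung mean, and 114 CPM in uterus, where its mean was 20.6%. Its lowest median was 9.81 CPM in testis.

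Sftpd was seen in the female reproductive tract. Its median was 78.5 CPM in uterus with a range of 17.7 to 497 CPM, and the mean was 29.6% of that in lung. In ovary the median was 34.6 CPM, with a range of 3.67 to 71.2 CPM. Aqp5 had a median of 30.0 CPM in ovary and 12.8 CPM in uterus. The uterus libraries, in which Sftpd gave 40892 reads in all, held 0 reads of Sftpc and 8 of Scgb1a1. A count of 0 there allows up to 0.01395 CPM of Sftpc, taken as 3 counts over the 12 libraries, which covers counting error only.

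Sftpc had a median of 6.12 CPM in ovary, where all 12 libraries held it (3.35 to 10.9 CPM), and 1.59 CPM in adrenal gland, where all 24 did (0.982 to 6.88 CPM). The adrenal libraries gave 1125 reads of Sftpc, beside 16 of Scgb1a1 and 4 of Sftpb. The lung libraries gave 6498407 reads of Sftpc, beside 13358266 of Scgb1a1 and 1053292 of Sftpb. Sftpa1 had a median of 1.98 CPM in pituitary and 0.674 CPM in liver, with reads in all 24 libraries of each. Ager had a median of 4.16 CPM in pituitary, 3.07 CPM in spleen and 1.84 CPM in uterus. In pituitary it ranged from 4.33 to 23.4 CPM in Deficient males and 7.26 to 13.9 CPM in Control males, and from 1.12 to 3.99 CPM in Deficient females and 0.745 to 1.54 CPM in Control females. In spleen Ager ranged from 12.2 to 37.1 CPM in Deficient males and 2.31 to 26.8 CPM in Control males. It ranged from 1.88 to 3.68 CPM in Deficient females and 1.38 to 2.35 CPM in Control females. Male spleen libraries differed in depth, with 37.1 CPM from 102 counts and 2.31 CPM from 70 counts. The library at 2.31 CPM, Control ZT05 replicate 3, came from animal 77, of a separate set of males that also gave the kidneys. The other male spleens came from the mice of the male lungs. Lamp3 had a median of 1.47 CPM in spleen. The most that Scgb3a2 reached was a median of 0.382 CPM in testis and 0.349 CPM in ovary.

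Treatment was tested outside lung where a gene passed the low-count filter of its tissue, and the filter left 89 comparisons of a gene in 1 tissue and sex. Scgb1a1 passed it in no tissue. In these 89, 7 passed the test, beside 8.68% of all 536171 gene and comparison pairs. They belonged to Abca3 (3), Ager (2), Aqp5 (1) and Sftpd (1), and 4 were rises and 3 falls.

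In uterus, a tissue where 45% of genes were called, Sftpd and Aqp5 fell, and Abca3 did not pass (-0.36 ± 0.19, edgeR adjusted p = 0.143). Sftpd ranged from 17.7 to 101 CPM with a median of 37.9 in Deficient uteri, and from 56.1 to 497 CPM with a median of 408 in Control uteri. The ranges overlapped, with 1 Control uterus (ZT17 replicate 2) among the Deficient ones. The log2 fold change was -3.04 ± 0.43 (edgeR adjusted p = 0.000409), and it passed in all 18 alternatives. Aqp5 ranged from 1.05 to 11.1 CPM with a median of 4.79 in Deficient uteri, and from 14.5 to 102 CPM with a median of 30.5 in Control uteri, with no overlap. Its log2 fold change was -3.17 ± 0.49 (edgeR adjusted p = 0.000564), and it too passed in all 18.

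In ovary, where 10.4% of genes were called, neither passed. Aqp5 ranged from 10.4 to 40.5 CPM in Deficient ovaries and from 17.6 to 87.4 CPM in Control ovaries, and its log2 fold change of -1.30 ± 0.38 had an edgeR adjusted p = 0.0514. It passed with DESeq2 (adjusted p = 0.00664) and without the low-count filter (0.0483). It also passed without Control ZT05 replicate 1, 2 or 3, at -1.49 to -0.79. At ZT17 Aqp5 ranged from 10.4 to 11.2 CPM in Deficient and 34.0 to 87.4 CPM in Control ovaries. At ZT05 it ranged from 26.0 to 40.5 and 17.6 to 79.5 CPM. Sftpd ranged from 17.7 to 37.4 CPM in Deficient ovaries and from 3.67 to 71.2 CPM in Control ovaries, at -0.67 ± 0.49. Without the lowest Control ovary, ZT05 replicate 2, it was -0.95 with an edgeR adjusted p = 0.0214. Sftpc in ovary ranged from 4.02 to 10.9 CPM in Deficient and 3.35 to 7.25 CPM in Control mice and did not pass (0.57 ± 0.22, adjusted p = 0.112).

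By their animal numbers the male kidneys came from mice other than those of the male livers and lungs. In these different males Abca3 moved in opposite directions, falling in kidney and rising in liver. In kidney, where 40.8% of genes were called in males, it ranged from 1014 to 1303 CPM in Deficient males and 1478 to 2013 CPM in Control males, with no overlap, and fell by 0.54 ± 0.11 on the log2 scale (edgeR adjusted p = 0.000709). In liver, where 8.53% were called in males, it ranged from 62.6 to 124 CPM in Deficient males and 40.9 to 56.0 CPM in Control males, again with no overlap, and rose by 0.84 ± 0.15 (edgeR adjusted p = 0.000901). Both passed in all 31 alternatives. In females it did not pass in kidney (-0.23 ± 0.11) or liver (-0.30 ± 0.14). The difference between the sexes was not tested, and in kidney it cannot be told apart from the separate set of male mice.

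Ager, low in both tissues, rose in adrenal gland of females and in kidney of males. In adrenal gland, where 5.42% of genes were called in females, it ranged from 0.553 to 1.81 CPM in Deficient females and 0.313 to 0.522 CPM in Control females, with no overlap, a log2 fold change of 1.37 ± 0.28 (edgeR adjusted p = 0.00658). In kidney of males it ranged from 0.973 to 2.29 CPM in Deficient and 0.185 to 1.40 CPM in Control mice, which overlapped, at 1.19 ± 0.36 (edgeR adjusted p = 0.0107). It did not pass in adrenal gland of males (0.31 ± 0.27) or kidney of females (0.40 ± 0.29), and the difference between the sexes was not tested. The male adrenal glands and kidneys came from the same separate set of mice, from which sex cannot be told apart. Both calls held in all 30 alternatives, and whether reads of its close neighbours entered the count was not tested. In extensor digitorum longus muscle of females, where 31.9% of genes were called, Abca3 was at 20.3 ± 1.47 CPM in Deficient and 18.1 ± 2.11 CPM in Control mice (SD, n = 6 each), with a log2 fold change of 0.17 ± 0.07 and an edgeR adjusted p = 0.0496. That call was lost in 20 of 31 alternatives, 18 of them with 1 library left out.

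Several comparisons outside lung did not pass but did so when 1 library was left out, a Control one unless stated. Ager passed in male liver without ZT05 replicate 2 (2.07), in male spleen without ZT05 replicate 1 (1.54) and in tibialis anterior tendon of females without ZT17 replicate 2 (1.27). Abca3 passed in uterus without ZT17 replicate 2 (-0.46), in ovary without ZT05 replicate 1 (0.57) and in tibialis anterior tendon of females without ZT05 replicate 3 (0.35), where Aqp5 did too (2.84). Sftpc passed in ovary without Deficient ZT05 replicate 3 (0.71). These values are log2 fold changes of fits without that library, and the genes are given here as not called.

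**Figure D5:**
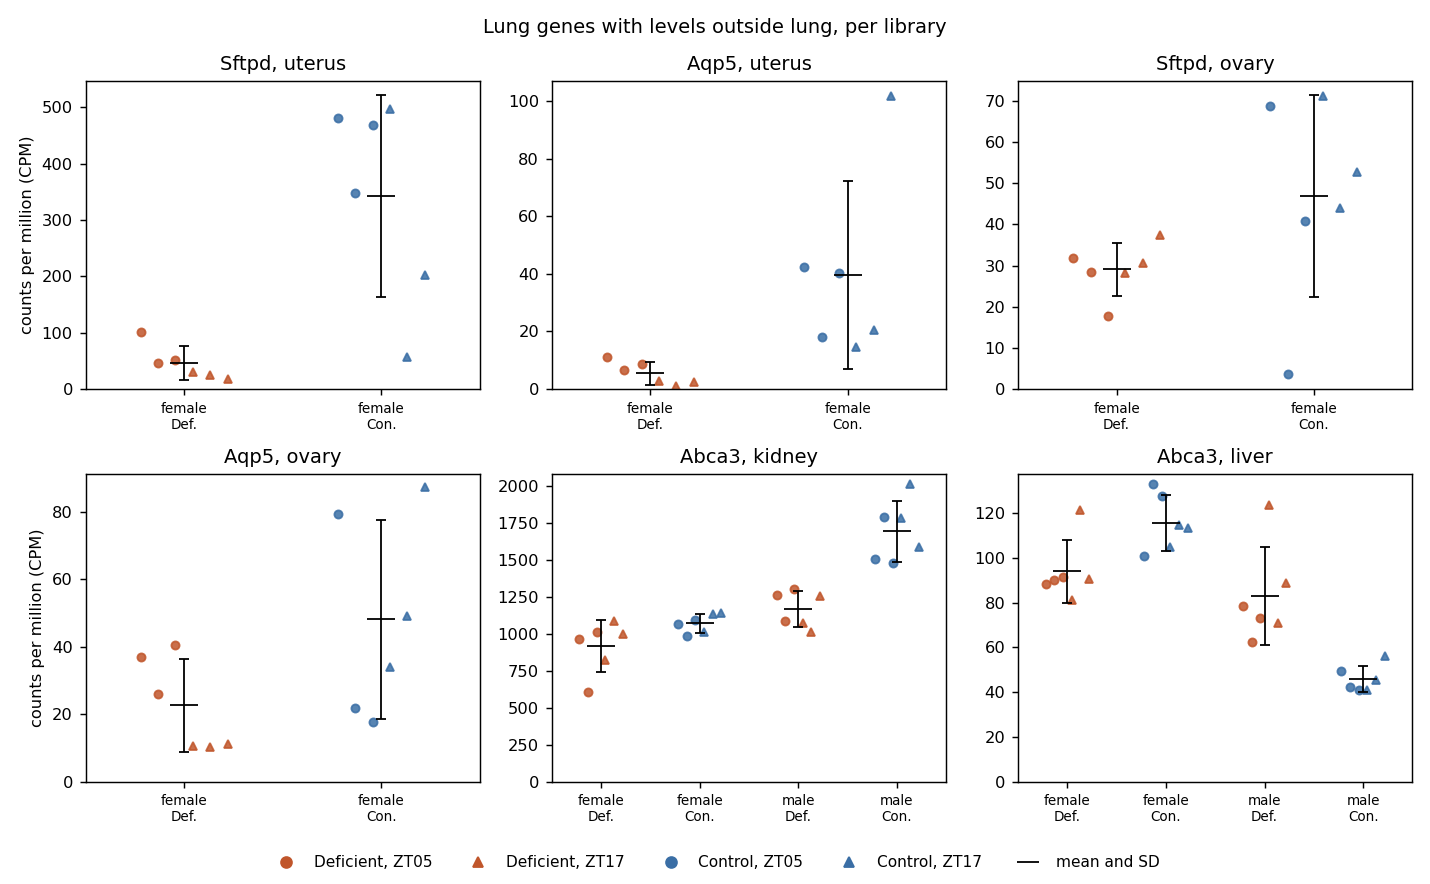
CPM per library (axes from 0) of Sftpd and Aqp5 in uterus and ovary and of Abca3 in kidney and liver; orange points are Deficient and blue points Control, circles ZT05 and triangles ZT17, black bars the mean and SD of 6 libraries. The Deficient and Control points do not overlap for Aqp5 in uterus (1.05 to 11.1 against 14.5 to 102 CPM) and for Abca3 in male kidney and male liver.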

How the data were processed

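RNA of 19 tissues (419 libraries, 24 of lung) was prepared with TRIzol and TruSeq Stranded mRNA kits, per the labels' protocols. The authors deposited raw counts per gene; the submitters' processing notes name the build GRCm38, the aligner STAR 2.7.10a, the trimmer cutadapt 4.1, FastQC 0.11.9 and also DESeq2 1.34.0, and whether counting used strand is not given in the sources used here. Groups follow the labels. Here the counts were scaled by TMM within a tissue and tested with edgeR 4.0.16 (R 4.3.3, quasi-likelihood, Benjamini-Hochberg over all genes tested, threshold 0.05) after filterByExpr (minimum count 10, minimum total 15), on one group per sex, treatment and time. CPM uses the TMM-scaled library size. Alternatives were DESeq2 1.42.0, its size factors in edgeR, no filter, a filter of 5 CPM in 3 libraries, mitochondrial genes left out, each sex alone, a replicate block and each library left out. Leaving out the libraries over 50% mitochondrial counts, and each sex alone for the time contrasts, were chosen after seeing the data. The 10 genes and the 24 gene lists (269 genes, 268 matched) were chosen with earlier results of these data known. Named genes are the 10, of each list up to 4 called genes with the largest change and any against the list's direction, a panel of marker genes, and the 5 genes most correlated with Sftpc, Scgb1a1 and Ager. Not every gene that this rule names is reported here. Figures used matplotlib. Intervals of 95% are normal intervals from the SE. Counting error is small for the 10 genes in lung, with libraries of 9467584 to 27651943 counts.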

Additional observations from a re-analysis of the deposited data

Results flagged for a closer look

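In 8 of 80 groups of 6 libraries 1 library lay apart from the other 5 by Dixon's criterion, where chance would flag about 4. Each group joined both collection times, and the same library can be flagged for more than 1 gene. The flags are thus not independent, and whether their number exceeds chance was not tested. Control female lung ZT17 replicate 2 was high for Ager at 3418 CPM (others 2417 to 2562), for Aqp5 at 368 CPM (others 276 to 305) and for Sftpc at 19225 CPM (others 13484.5 to 15314). Deficient female lung ZT17 replicate 2 was high for Abca3 at 667 CPM (others 418 to 505).

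Outside lung, Control uterus ZT17 replicate 3 was high for Aqp5 at 102 CPM (others 14.5 to 42.3). In pituitary of Control males, ZT17 replicate 2 was low for Ager at 7.26 CPM (others 12.5 to 13.9) and ZT17 replicate 1 was high for Sftpa1 at 6.07 CPM (others 1.82 to 3.08). In spleen of Deficient males, ZT17 replicate 1 was high for Ager at 37.1 CPM (others 12.2 to 20.7).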

How the results depend on the processing

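Counts of the 10 genes that passed changed as follows. In females 0 passed, against 1 in the females alone and 1 without the libraries over 50% mitochondrial counts, and 0 with each library left out. In males 0 passed, against 1 without the low-count filter, 1 with the 5 CPM filter and 1 with DESeq2, and 0 to 2 with 1 library left out. Over both sexes 1 passed, and 0 to 1 with 1 library left out. For the sex difference 0 passed, against 1 without the libraries over 50%, and 0 to 1 with 1 library left out. Between times in Control 1 passed, against 0 in females alone, 0 in males alone and 3 without the libraries over 50%, and 0 to 3 with 1 library left out. For the time difference of the response 0 passed, against 2 without the libraries over 50%, and 0 to 2 with 1 library left out.

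Counts over all genes moved more. The female count of 20 was 91 without the filter, 12 with the 5 CPM filter, 239 with DESeq2, 34 with the replicate block, 1320 in females alone, 125 without the libraries over 50% and 3 to 72 with 1 library left out. The male count of 971 was 1559 with DESeq2, 54 in males alone and 508 to 1765 with 1 library left out. Over both sexes 950 became 1743 with DESeq2 and 558 to 1786. The sex difference of 146 was 285 without the filter, 463 with DESeq2, 29 with the block, 501 without the libraries over 50% and 6 to 388. Between times 39 in Deficient became 189 with DESeq2, 320 in females alone, 2 in males alone and 10 to 71, and 2637 in Control became 1123, 943 and 1523 to 2986. The time difference of 1138 was 2285 with DESeq2, 129 in females alone, 2 in males alone and 517 to 1846. The causes were not tested.

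Outside lung 7 comparisons passed, with 6 to 9 when 1 library was left out. Residuals of same-numbered lung libraries correlated at 0.0616 on average (-0.515 to 0.640) and others at -0.0296. Of 24 libraries 12 correlated best with their own number, and the share expected without pairing was not worked out. Whether replicate numbers pair the lungs is therefore not settled by these values. The replicate block changed no call of the 10 genes in lung. Depth limits the traces outside lung, where several genes had few reads.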
